A study of Vitis labrusca x Vitis vinifera with 9 samples.

Results

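Sucrose synthase (SuSy, GSVIVT00016378001) and the bidirectional sugar transporter SWEET14 (GSVIVT00017991001) were followed in dormant grapevine buds, as 2 of the 30128 genes with a probe on the array. They were taken from the study's list of genes changed at least 2-fold after all 3 of its treatments. That list was drawn from the same arrays, so the levels of both genes relative to control are given as a description without a test. Buds at node 8 of mature canes, on 5-year-old Kyoho vines (Vitis labrusca x Vitis vinifera), were collected 24 h after treatment in late August. In PHC the cane was pruned and the bud sprayed with 1% hydrogen cyanamide, a chemical used to force bud break. In HC the bud was sprayed with hydrogen cyanamide alone, and in P the cane was pruned and the bud received water. Control buds received water on canes that were not pruned. For HC the labels name pruned canes whereas the study's methods name canes left unpruned, and the files do not settle which applies. Each treatment had 3 biological replicates of 10 buds, and RNA from treated buds (Cy5) was hybridised with RNA from control buds (Cy3) on 9 two-colour arrays.

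Sucrose synthase splits sucrose reversibly into fructose and UDP-glucose, the sugar nucleotide from which cellulose and callose are built, and in many plants its transcript is abundant in growing and oxygen-poor sink tissue. SWEET proteins carry sugars across membranes down a concentration gradient, without coupling to protons, and some of them release sucrose from leaf cells to the phloem. A bud is a sink organ that depends on sugar delivered by the cane or released from its own starch. In the deposited annotation the closest Arabidopsis gene to SuSy is SUS4, and the closest to the gene named SWEET14 is SWEET10, so the number in the grape name does not mark the Arabidopsis gene of that number.

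Between 83.6 and 90.3% of probes were well above background in the treated channel of an array, and between 80.6 and 88.9% in the control channel. The value analysed was the log2 ratio of treated over control signal, and 26395 probes bright enough in at least 1 treatment were tested. A probe was called when the adjusted p from limma was below 0.05 and the change was at least 2-fold. The treated sample carried Cy5 on 9 of 9 arrays, so a dye effect on a probe and a treatment effect cannot be told apart in a ratio against control. The HC replicate 3 array stood apart in dye balance, with a median background-subtracted signal of 172 in Cy5 and 232 in Cy3, whereas Cy5 was the brighter channel on the other 8 arrays. Both genes were well above background in both channels on 9 of 9 arrays, and neither had a saturated spot or an outlying spot signal, though the local background of SuSy was marked as outlying on PHC replicate 2.

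SuSy was higher than control on 9 of 9 arrays, and most so after PHC. After PHC its log2 ratios were 3.43, 3.13 and 3.17 in replicates 1, 2 and 3. After HC they were 1.90, 1.81 and 1.52. After P they were 1.73, 2.54 and 1.67. The 3 PHC arrays lay above all HC and P arrays, while HC and P arrays overlapped, with replicate 2 of P standing above the other two. PHC arrays without overlap lay above HC for 20.9% of the probes measured on every array and above P for 22.6%. The means were 3.24 ± 0.16 after PHC, 1.74 ± 0.20 after HC and 1.98 ± 0.48 after P (SD, n = 3 each). These means correspond to levels 9.48-fold, 3.35-fold and 3.95-fold those of control buds. A ratio of at least 1 on all 9 arrays, as SuSy had, was found for 0.197% of the probes measured on every array, a ratio above 0 on all 9 for 10.6%, and a mean of at least 1 after each treatment for 0.873%. Because the list was selected on this property, these shares are printed for scale only. Without HC replicate 3 the HC mean of SuSy was 1.85.

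SWEET14 was lower than control on 9 of 9 arrays, and least so after P. After PHC its log2 ratios were -2.87, -2.24 and -3.35 in replicates 1, 2 and 3. After HC they were -1.74, -2.33 and -2.73. After P they were -0.75, -1.29 and -1.34. PHC and HC arrays overlapped, and all 6 of them lay below the 3 P arrays. PHC arrays lay wholly below P arrays for 25.6% of probes. The means were -2.82 ± 0.55 after PHC, -2.27 ± 0.50 after HC and -1.13 ± 0.33 after P (SD, n = 3 each). Expressed against control, SWEET14 stood at 14.2% after PHC, 20.8% after HC and 45.8% after P. The P mean lay just past the 2-fold limit of the study's list, and P replicate 1 lay short of it. A ratio below 0 on all 9 arrays was found for 15.1% of the probes measured on every array, and a mean of -1 or lower after each treatment for 0.338%. Without HC replicate 3 the HC mean of SWEET14 was -2.03. Since whole buds were extracted, fewer cells of a type and less RNA per cell cannot be told apart for either gene.

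**Figure D1:**
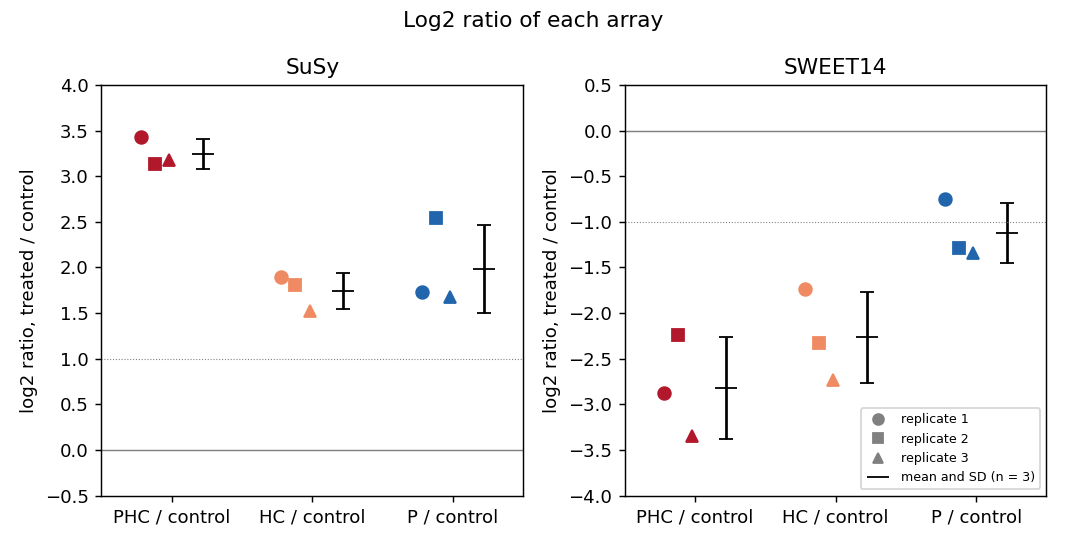
Log2 ratio of treated over control signal for SuSy (left) and SWEET14 (right) on each array, by treatment; bars show the mean and SD of 3 arrays and dotted lines a 2-fold change. The SuSy points lie between 1.52 and 3.43 with PHC on top, and the SWEET14 points between -3.35 and -0.75 with P closest to control.

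The signals behind these ratios were of very different strength for each probe's own background. SuSy was bright in both channels. Its dye-normalized signals were 112670, 94170 and 171270 in PHC buds, against 10452, 10747 and 18998 in the control buds on the same arrays. HC buds gave 25580, 34202 and 18061, against 6849, 9772 and 6293 in their controls. P buds gave 18801, 35803 and 27097, against 5658, 6162 and 8487 in their controls. On every array the treated channel was the brighter one. SWEET14 was a dim spot. Its dye-normalized signals were 57.7, 134 and 79.2 in PHC buds, against 422, 635 and 806 in control buds. HC buds gave 71.3, 89.9 and 48.7, against 238, 453 and 322 in their controls, and P buds gave 136, 134 and 149, against 228, 328 and 377 in theirs. The treated signals of P buds were the steadiest of the 3 treatments.

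Before dye normalization, the background-subtracted SWEET14 signals were 20.2 to 150 in Cy5, over a local background of 61.5 to 68.2. In Cy3 they were 51.5 to 145 over a background of 28.2 to 32. On the P arrays the subtracted SWEET14 signals were 107, 120 and 150 in P buds and 61.1, 114 and 144 in control buds, so the treated channel was the brighter one before normalization. The median probe on these arrays had 327, 530 and 648 in P buds and 107, 184 and 244 in control buds. The lower SWEET14 ratio after P is therefore a value relative to the other probes of the array. With the subtracted signals only centred on the array median, the mean SWEET14 ratio came to -2.85 after PHC, -2.14 after HC and -1.08 after P. The same treatment of SuSy gave 3.38, 1.69 and 1.97, in the same order of treatments. With normexp and loess, where the offset of 50 is close to the SWEET14 signal, its means were -1.42 after PHC, -1.16 after HC and -0.68 after P, and those of SuSy, far above the offset, were 3.22, 1.73 and 1.96.

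The control channel of SWEET14 was alike among arrays of the same replicate number. Its highest subtracted control signal was 1.03 to 1.27 times the lowest within a number, and for SuSy 1.08 to 1.55 times. Across the arrays, control signals over all probes correlated at 0.996 to 0.999 between arrays of the same number and at 0.983 to 0.996 between arrays of different numbers. The sources do not say whether arrays with the same number carried the same control extract. Deviations of the log2 ratios from their treatment means correlated at 0.00309 to 0.628 between arrays of the same number, and over 0.1 in 8 of 9 pairs.

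**Figure D2:**
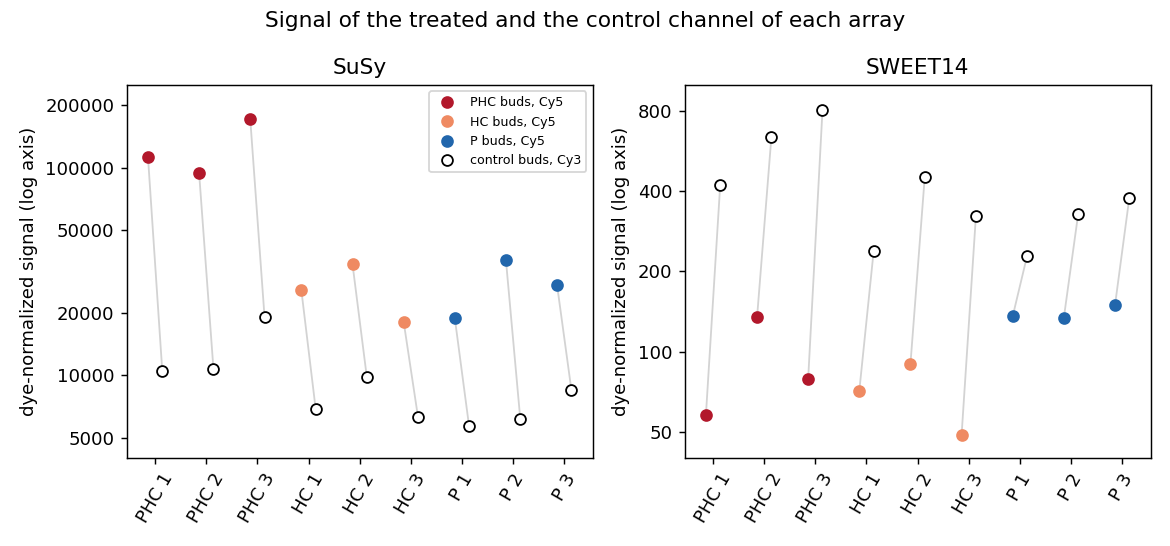
Dye-normalized signal of SuSy (left) and SWEET14 (right) in the treated channel (filled) and the control channel (open) of each array, on log axes. SuSy reaches 171270 in PHC buds against 18998 in control buds of the same array, and SWEET14 falls to 48.7 in HC buds of replicate 3 against 322 in control buds.

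The limit behind the study's list does not involve differences between treatments. They are read from the same ratios, however, and both genes were taken up with results of these arrays known, so the p-values below are not independent of that choice. SuSy was higher after PHC than after HC by 1.50 on the log2 scale (95% confidence interval 0.94 to 2.06), or 2.83-fold (limma, adjusted p = 0.00339). Within replicate numbers 1, 2 and 3 this difference was 1.53, 1.32 and 1.65. SuSy was also higher after PHC than after P by 1.26 (0.70 to 1.82), or 2.40-fold (limma, adjusted p = 0.00887), with 1.70, 0.59 and 1.50 within the numbers. Higher levels were called for 8.55% of tested probes for PHC against HC and for 4.85% for PHC against P. HC and P differed by -0.24 for SuSy, with an interval from -0.80 to 0.32 (limma, adjusted p = 0.572), so a difference within those bounds could not be told from 0 on these arrays. When every array was scaled to the same spread of ratios, which by construction narrows PHC arrays and widens P arrays, the SuSy difference was 0.71 for PHC minus HC (limma, adjusted p = 0.111) and -0.61 for PHC minus P (limma, adjusted p = 0.317), and neither was called. On that scale HC was lower than P by -1.32 and called (limma, adjusted p = 0.0125).

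For SWEET14 only PHC minus P was called. The gene was lower after PHC than after P by -1.69 (95% confidence interval -2.47 to -0.92), a level 0.309 times that after P (limma, adjusted p = 0.0100). Within replicate numbers 1, 2 and 3 this difference was -2.12, -0.95 and -2.01. Lower levels were called for 4.82% of tested probes in that comparison. With normexp background correction, which adds an offset of 50 to signals as dim as these, the difference was -0.74 with loess (limma, adjusted p = 0.0687) and was no longer called. It was -0.29 with arrays scaled to the same spread (limma, adjusted p = 0.759). HC was lower than P by -1.14 (-1.91 to -0.37), and the arrays did not overlap, but the adjusted p was 0.0683 in limma and no call was made. Arrays without overlap in this direction were found for 17.5% of probes, and 3.13% were called. With the replicate number as a block, HC minus P of SWEET14 was called (limma, adjusted p = 0.0312). The same difference was smaller with normexp, at -0.48 with loess and -0.40 with median centring (limma, adjusted p = 0.306 and 0.438), and at -0.33 with scaled arrays (limma, adjusted p = 0.539). PHC and HC differed by -0.55 for SWEET14, with an interval from -1.33 to 0.22 (limma, adjusted p = 0.249), and 5.33% of probes were called lower there. With arrays weighted by quality it was -1.07 and called (limma, adjusted p = 0.0344).

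**Figure D3:**
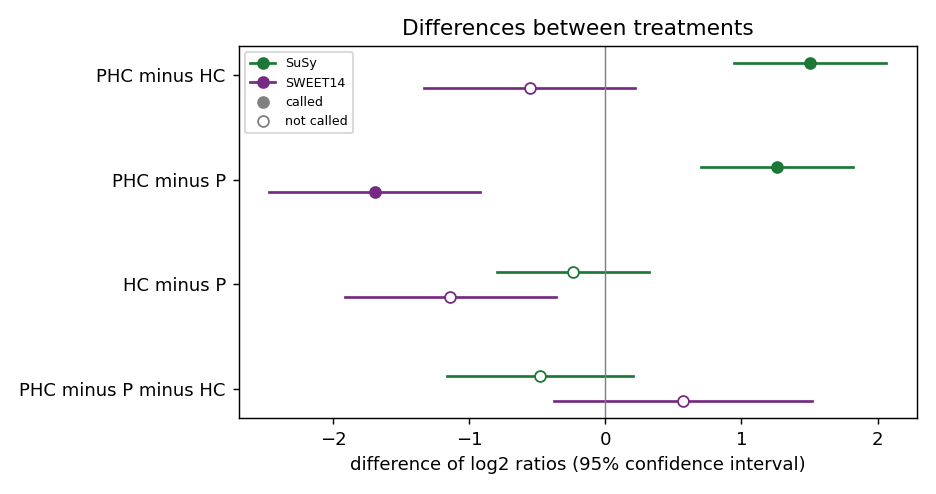
Difference of mean log2 ratios between treatments for SuSy (green) and SWEET14 (purple), with 95% confidence intervals from limma; filled points were called. Called differences are 1.50 and 1.26 for SuSy and -1.69 for SWEET14, and intervals of the other comparisons except HC minus P of SWEET14 cross 0.

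The design also asks whether the combined treatment departed from the sum of its components. For SuSy, HC and P summed to a log2 ratio of 3.73 and PHC reached 3.24, a departure of -0.48 with an interval from -1.16 to 0.20 (limma, adjusted p = 0.392). For SWEET14, HC and P summed to -3.39 and PHC reached -2.82, a departure of 0.57 with an interval from -0.38 to 1.52 (limma, adjusted p = 0.466). Neither was called, against 1.54% of probes called above and 1.52% below the sum. Both intervals include 0. With arrays scaled to the same spread both were called, at -2.24 for SuSy (limma, adjusted p = 0.0197) and 1.77 for SWEET14 (limma, adjusted p = 0.0467). Within replicate numbers 1, 2 and 3 the departure was -0.20, -1.21 and -0.02 for SuSy and -0.39, 1.38 and 0.72 for SWEET14. The control enters this contrast once more on the side of the sum, and if HC canes had been pruned as their labels say, pruning would enter the sum more than once.

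Other genes of sugar metabolism were found through the Arabidopsis gene paired with each probe, and are called here homologs of that gene. Calls higher than control were made for 13.5% of all tested probes after PHC, 5.16% after HC and 2.75% after P. Calls lower than control were made for 11.7%, 4.75% and 0.572% in the same order. Against this background, 76 tested sugar genes apart from the SuSy and SWEET14 probes gave 11 higher and 19 lower after PHC, 3 and 6 after HC, and 4 and 0 after P. Their median log2 ratio stood at -0.17 after PHC, -0.18 after HC and -0.11 after P, beside -0.07, -0.03 and -0.03 for all tested probes. With normexp and median centring, lower PHC calls were lost for the CALS1, CALS7, PGLCT, DPE1, PHS1, AMY3, SPP2, SUC4 and TPS7 homologs. The higher PHC calls of the SWEET2 and CESA7 homologs were lost there too. The counts of called sugar genes therefore depend on the processing.

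Of the 3 other sucrose synthase genes, all tested, 0 were called higher than control after any treatment. The SUS3 homolog (GSVIVT00028036001) had log2 ratios of -2.20, -1.72 and -2.37 after PHC, and fell by 2.10 on average (limma, adjusted p = 1.5e-05). After HC it averaged -0.79 ± 0.34 and after P -0.61 ± 0.14 (SD, n = 3), short of 2-fold. Its PHC level was below that of HC by -1.31 (limma, adjusted p = 0.00425) and below that of P by -1.48 (limma, adjusted p = 0.00397). With arrays scaled to one spread these were -0.79 and -0.58 and neither was called, and with normexp and median centring PHC minus HC, at -0.94, was not called. The SUS2 homolog (GSVIVT00033041001) had 0.34, 0.56 and 1.27 after PHC (mean 0.72, limma, adjusted p = 0.027, short of 2-fold), and averaged -0.31 ± 0.34 after HC and -0.35 ± 0.52 after P. It stood higher after PHC than after HC by 1.03 (limma, adjusted p = 0.047) and than after P by 1.07 (limma, adjusted p = 0.049). Those calls were lost in 12 and 13 of 19 other settings, among them normexp with loess (0.42 each) and leaving out PHC replicate 3 (0.76 and 0.79). The SUS6 homolog (GSVIVT00000882001) averaged -0.33 ± 0.06, -0.51 ± 0.17 and -0.27 ± 0.07. The contrast of SuSy and the SUS3 homolog was present on each PHC array, with SuSy at 3.13 or above and the SUS3 homolog at -1.72 or below. Probe sequences were not used here, so hybridisation of 1 sucrose synthase transcript to the probe of another was not tested. Through gene ontology, 11 probes other than SuSy carried the term for sucrose metabolism, of which 8 were tested and 3 were called lower after PHC, with 0 called higher after any treatment.

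The SWEET family split in direction after PHC. Of 6 tested genes other than SWEET14, PHC gave 3 calls above control and 2 below, HC gave 0 and 1, and P gave 1 and 0. Among those that fell, the SWEET1 homolog (GSVIVT00014310001) had -1.47, -1.82 and -2.12 after PHC (mean -1.80, limma, adjusted p = 2.5e-05), and averaged -0.77 ± 0.34 after HC and -0.75 ± 0.08 after P. The SWEET7 homolog (GSVIVT00006690001) was not well above background in PHC and HC buds on any array. Its ratios were called lower after PHC and HC (limma, adjusted p = 0.00014 and 0.0024), but the size of the fall is not known. With treated signals raised to the lowest one well above background on the array, it was 2.61-fold after PHC and 1.39-fold after HC. On the HC arrays the control was well above background on only 2 of 3. With normexp and loess these calls were lost, at -0.46 after PHC and -0.25 after HC.

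Among the genes that rose, the SWEET17 homolog (GSVIVT00033013001), related to Arabidopsis transporters of the vacuolar membrane, had 2.79, 2.29 and 2.60 after PHC and 1.36, 1.34 and 1.34 after P. It averaged 2.56 ± 0.25 after PHC (limma, adjusted p = 1.5e-05), -0.10 ± 0.58 after HC and 1.35 ± 0.02 after P (limma, adjusted p = 0.0053). The P call was lost without P replicate 2 (limma, adjusted p = 0.056). This order differed from that of SWEET14, since HC was the treatment nearest to control. The SWEET3 homolog (GSVIVT00006498001) had 3.74, 5.39 and 5.66 after PHC (mean 4.93, limma, adjusted p = 0.00018), but control buds exceeded background clearly on only 1 of the 3 arrays, so the size is loosely known. With normexp and loess it was 1.84, still called. The SWEET2 homolog (GSVIVT00027922001) had 1.33, 1.59 and 1.41 after PHC (mean 1.44, limma, adjusted p = 0.013), and this call was lost without PHC replicate 2 or PHC replicate 3 and under both normexp settings. The SWEET4 homolog stayed within -0.50 and 0.74 on all 9 arrays, and the SWEET15 homolog was not well above background on any.

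**Figure D4:**
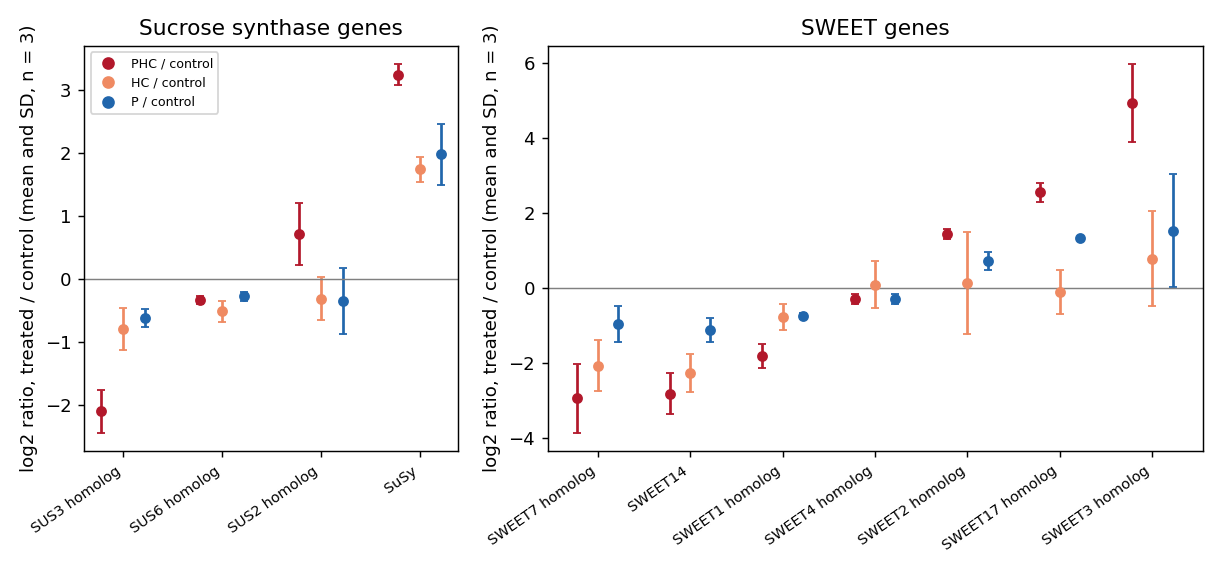
Mean log2 ratio of treated over control signal, with SD over 3 arrays, for the tested sucrose synthase genes (left) and SWEET genes (right), ordered by their PHC mean and coloured by treatment. SuSy is the only sucrose synthase gene above 1, and after PHC SWEET14 stands at -2.82 and the SWEET17 homolog at 2.56. The outermost genes, SWEET7 and SWEET3 homologs, have a channel at background on most PHC arrays, so their places on the axis are loosely known.

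Sucrose-phosphate synthase and sucrose-phosphatase carry out the final steps of sucrose synthesis. Of 4 genes, 3 were tested, and these 3 were called lower after PHC and 0 after HC or P. The fourth, the SPSB homolog (GSVIVT00038825001), was too dim to be tested. Its signal was well above background in PHC buds on 2 of 3 arrays and in control buds on 0 of these 3, so no fold is given. The SPSA1 homolog (GSVIVT00006423001) averaged -1.74 ± 0.26 after PHC, -0.69 ± 0.06 after HC and -0.51 ± 0.25 after P. The SPSC homolog averaged -1.74 ± 0.51, -0.50 ± 0.27 and -0.39 ± 0.03 in the same order, and the SPP2 homolog -1.04 ± 0.22, -0.90 ± 0.13 and -0.49 ± 0.11. The SPP2 call was lost without PHC replicate 1 and under both normexp settings.

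Invertases, which split sucrose irreversibly into glucose and fructose, gave calls in 1 direction only. Among cell wall and vacuolar invertases 1 of 3 tested genes was higher after PHC, HC and P. This was the cwINV1 homolog (GSVIVT00034185001), an enzyme of the cell wall that is also on the study's list, at 1.49 ± 0.71 after PHC, 2.91 ± 0.30 after HC and 1.18 ± 0.21 after P. Its order of treatments was not that of SuSy, since it was lower after PHC than after HC by -1.42 (limma, adjusted p = 0.015) and higher after HC than after P by 1.73 (limma, adjusted p = 0.014). The first call was lost with normexp and median centring and with array weights, and the second with scaled arrays and without P replicate 1 or P replicate 2. Its P call was lost under both normexp settings and without any of the P arrays. The vacuolar VI2 homolog averaged 0.77 ± 1.00, 1.30 ± 1.02 and 0.34 ± 0.82 after PHC, HC and P, and the cwINV2 homolog 0.06 ± 0.12, 0.01 ± 0.44 and -0.13 ± 0.04. Of 4 neutral invertases of the cell interior, the CINV2 homolog was called higher after PHC (1.08 ± 0.29), a call lost without PHC replicate 3, and the INVB, INVC and INVE homologs, at 0.84 ± 0.20, -0.43 ± 0.08 and -0.75 ± 0.05, were not called.

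Sucrose transporters, which load sucrose with protons, were lower after PHC in 2 of 3 cases. The homolog of SUC2 (GSVIVT00002302001), the loader of companion cells in the Arabidopsis phloem, had -2.36, -2.69 and -2.81 after PHC, -1.73, -1.37 and -1.25 after HC and -0.68, -0.97 and -0.81 after P. It was called after PHC and HC (limma, adjusted p = 4.5e-06 and 0.00012). By its means the SUC2 homolog thus stood lowest after PHC and nearest to control after P, as SWEET14 did. For SWEET14 the PHC and HC arrays overlapped, and their difference was not called in the main fit. The SUS3, SWEET1, SPSA1 and SPP2 homologs had the same order of means, so this order is not particular to SWEET14 and the SUC2 homolog. The SUC4 homolog, of a vacuolar transporter, was called after PHC at -1.20 ± 0.15, though not with normexp and median centring (-0.52), and averaged -0.12 ± 0.23 after HC and -0.34 ± 0.11 after P. The SUC3 homolog averaged -0.27 ± 0.06, 0.20 ± 0.18 and 0.08 ± 0.07. Among the other lists, starch genes gave 0 higher and 4 lower of 15 after PHC, and trehalose genes 2 higher and 3 lower of 9. Of the 4 starch calls, only that of the BE3 homolog was kept with normexp and median centring.

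**Figure D5:**
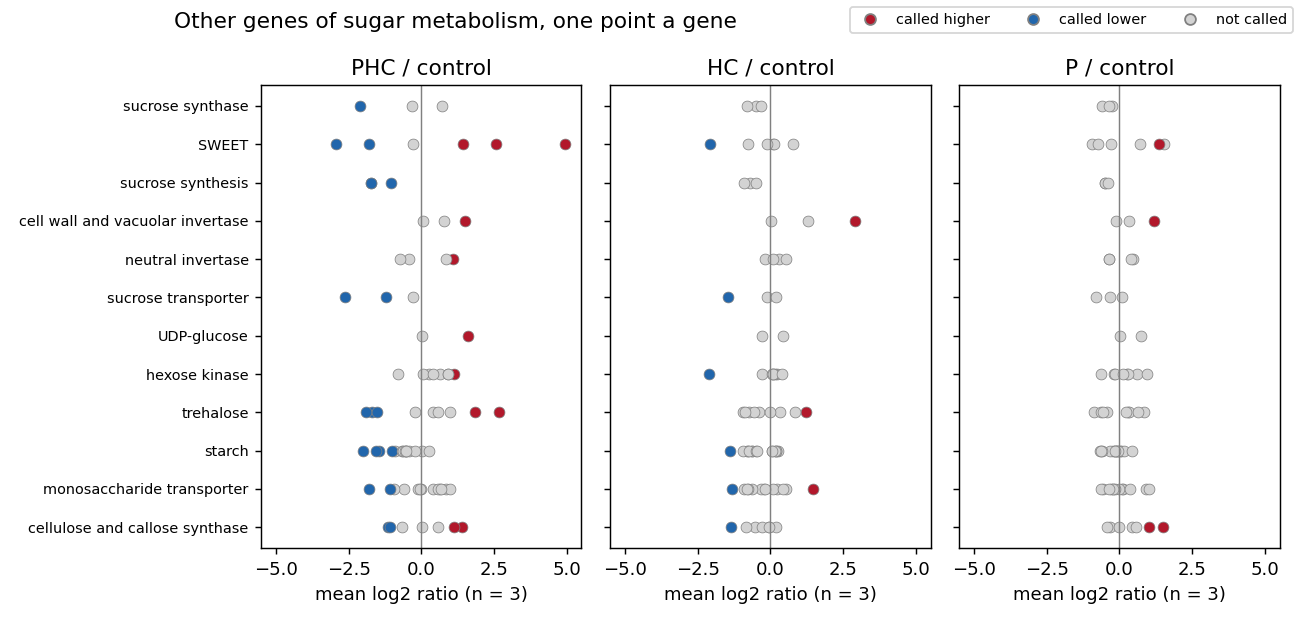
Mean log2 ratio of treated over control signal (n = 3 arrays) of each tested sugar gene other than SuSy and SWEET14, grouped by list, after PHC, HC and P; red points were called higher and blue points lower. Over all lists PHC gives 11 higher and 19 lower, HC gives 3 and 6, and P gives 4 and 0.

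Marker genes of cell types that a bud can hold were followed beside both genes. Words of the descriptions fixed for phloem found 34 further genes, all 34 of them protein phosphatases, so phloem genes were taken by Arabidopsis gene. Of 4 phloem markers 1 was lower after PHC and after HC, and in both cases this was the SUC2 homolog named above. Signals of a list were summed after dye normalization. Control sums differed between the arrays of different treatments, so a sum compares only with the other channel of the same arrays. The summed phloem signal was 12894 to 14540 in PHC buds against 44178 to 62295 in control buds, 11672 to 15497 in HC buds against 20530 to 32416, and 14601 to 17117 in P buds against 23326 to 27129. Without the SUC2 homolog the sum of the other 3 was 6238 to 7133 in PHC buds against 7102 to 10197 in control buds, and the median log2 ratio of all 4 stood at -0.41 after PHC, -0.63 after HC and -0.03 after P. Of 2 dormant bud markers, DRM1 and DRMH1 homologs, 2 were lower after PHC and 1 after HC, and their summed signal was 229860 to 260270 in PHC buds against 1028000 to 1483200 in control buds, 288580 to 349630 in HC buds against 558950 to 697160, and 274840 to 360110 in P buds against 336080 to 476310. For photosynthetic tissue 2 of 10 markers were lower after PHC. For xylem and cambium 2 of 7 were higher and 1 lower, and for the shoot meristem 1 of 6 was higher. After HC 1 meristem marker was lower, and after P 1 xylem marker was higher. Over all tested probes, 13.5% were called higher and 11.7% lower after PHC, 4.75% lower after HC and 2.75% higher after P. Both photosynthetic calls and the HC call of the DRMH1 homolog were lost with normexp and median centring. In the xylem list the calls of the IRX9 homolog (lower) and the CESA7 homolog (higher) were lost under both normexp settings. So was the HC call in the meristem list. The summed signal of the photosynthetic list was 429940 to 617590 in PHC buds against 482890 to 769790 in control buds, that of the xylem list 3153 to 4462 against 3075 to 3451, and that of the meristem list 38678 to 53197 against 25670 to 40873. In every list 0 markers were at background on all arrays. The part of these shifts in the values of SuSy and SWEET14 was not tested.

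The genes with ratios most like those of SuSy were sought among 4884 named probes, by the root mean square difference over 9 arrays. A pectinesterase with its inhibitor domain (GSVIVT00034843001) was nearest, at 0.240, with means of 3.15 after PHC, 1.83 after HC and 1.89 after P. It was followed by a neural Wiskott-Aldrich syndrome protein-like gene (0.344), a proline-rich protein (0.413), another pectinesterase (0.426) and a thionin-like protein (0.434), against a median difference of 2.44 over all named probes. Pectinesterases remove methyl groups from cell wall pectin. For SWEET14 the nearest was the homolog of the B3 transcription factor FUS3 (GSVIVT00037932001), a regulator of seed maturation, at 0.368, with means of -2.92 after PHC, -2.11 after HC and -1.37 after P. It was followed by a glucan endo-beta-glucosidase (0.485), a zeatin O-glucosyltransferase-like gene (0.507), an asparagine synthetase-like gene (0.522) and a homeobox-leucine zipper protein (0.522), against a median of 2.25. All 10 carry names from the study's tables, which were drawn up from these arrays. Over 23197 probes with or without a name, 5 were closer to SuSy and 9 closer to SWEET14 than the last of these named genes.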

How the data were processed

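Total RNA of treated buds carried Cy5 and that of control buds Cy3, on Agilent grape arrays with 60-base probes. Intensity columns were deposited as linear spot signals that the authors extracted with Agilent Feature Extraction 10.5, per the submitters' processing notes. The deposited log2 value is the authors' Cy5 over Cy3 ratio, corrected for background and for dye by a rank-consistent LOWESS, and their ratio column holds it on a linear scale. The series table repeats the log2 values within 0.005. A deposited p-value per spot was not used.

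Outlying spots (81 values) and 3733 dim probes were left out. A probe was kept when 1 channel at least was well above background on the 3 arrays of any treatment. For 26395 probes, limma 3.58.1 (R 4.3.3, with jsonlite 2.0.0 and data.table, version 1.17.8) fitted 1 mean per treatment over 9 arrays (6 residual and 2.74 prior degrees of freedom), with Benjamini-Hochberg adjustment within a comparison. The number of arrays limits precision, and the labels do not say what a replicate number marks. The fit was also run on simulated data with independent noise on each array and changes added to PHC only. Deviations shared by same-numbered arrays were not simulated, so that run does not address them. Plots used Python 3.11.15 and matplotlib 3.10.9.

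Both genes and all lists were chosen with earlier results of these data known. Lists by Arabidopsis gene were added after the files were seen, because words of the descriptions found few genes. Named were all genes of lists with up to 8 tested genes, otherwise the 3 with the smallest adjusted p, and the 5 named probes nearest to each gene. Of 30128 probes, 11381 carried an Arabidopsis gene and 439 took a name from the study's tables. Alternatives were normexp with an offset of 50, the series table, scaling, the replicate block, other filters, array weights, the Cy5 channel alone, subsets of arrays, no fold limit and leaving out each array.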

Additional observations from a re-analysis of the deposited data

Results flagged for a closer look

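Differences between treatments that passed limma's test at an adjusted p below 0.05 and a 2-fold limit are gathered here for SuSy, SWEET14 and their families, as differences of mean log2 ratios. Both genes were taken up with results of these arrays known. SuSy stood 1.50 higher after PHC than after HC and 1.26 higher than after P, without overlap of arrays. With arrays scaled to one spread these differences were 0.714 and -0.605, and neither was called. SWEET14 stood lower after PHC than after P (-1.69), also without overlap of arrays. That call was lost under both normexp settings (-0.744 with loess and -0.804 with median centring) and with scaled arrays (-0.294).

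In the sucrose synthase family, the SUS3 homolog differed by -1.31 for PHC minus HC and by -1.48 for PHC minus P. Both calls were lost with arrays scaled to one spread, and the first also with normexp and median centring. The SUS2 homolog differed by 1.03 and 1.07 in the same order (limma, adjusted p = 0.0466 and 0.0494). The SUS2 calls were lost in 12 and 13 of 19 other settings, with 0.42 for each under normexp with loess and 0.76 and 0.79 without PHC replicate 3. Among SWEET genes, the SWEET17 homolog differed by 2.66 for PHC minus HC, 1.21 for PHC minus P and -1.45 for HC minus P. The second was lost in 6 of 19 other settings, with -0.20 on scaled arrays, and the third without P replicate 2 or P replicate 3. The SWEET1 homolog differed by -1.03 for PHC minus HC and by -1.06 for PHC minus P. These calls were lost in 7 and 5 of 19 other settings, with -0.91 and -0.93 under normexp with loess and -0.88 and -0.90 without PHC replicate 3. The SWEET3 homolog differed by 4.14 for PHC minus HC and by 3.40 for PHC minus P, but control buds were well above background on only 1 of 3 arrays of each treatment. The call for PHC minus P was lost in 5 of 18 other settings. For the SWEET7 homolog the fit gave -1.99 for PHC minus P, but PHC buds were well above background on 0 of 3 arrays, so the size of this difference is not known. It was -0.31 under normexp with loess (limma, adjusted p = 0.13), and the call was lost in 8 of 18 other settings.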

How the results depend on the processing

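SuSy was above and SWEET14 below control in each treatment under all settings tried. Normexp with loess put SWEET14 at -1.42, -1.16 and -0.68 after PHC, HC and P, and PHC minus P was -0.744. With normexp and median centring SuSy after PHC was 3.89, SWEET14 after PHC -1.62 and after HC -1.21, and SWEET14 PHC minus P -0.804. With arrays scaled to one spread, SuSy was 2.35 after PHC and 2.95 after P, SWEET14 -2.02 after PHC and -1.73 after P. SuSy then differed by 0.714 (PHC minus HC), -0.605 (PHC minus P, reversed), -1.32 (HC minus P, called) and -2.24 (PHC minus P minus HC, called), and SWEET14 by 0.0399 (PHC minus HC, reversed), -0.294 (PHC minus P) and 1.77 (PHC minus P minus HC, called). Array quality weights gave -1.07 for SWEET14 PHC minus HC, and the Cy5 channel alone -1.20 for HC minus P, both called. The offset and the common spread act on these values by construction; other causes were not tested.

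Same-numbered arrays tended to deviate together, with a correlation over 0.1 in 8 of 9 pairs (0.00309 to 0.628). Among arrays of other treatments, 9 of 9 arrays correlated best with one of their own number. The main fit held no term for the replicate number. The study's methods describe canes set out in 3 randomized blocks, and no source used here ties a replicate number to a block. With the replicate block SWEET14 HC minus P, at -1.14, was called (limma, adjusted p = 0.0312), and no other call of either gene changed. The block gave 1375 probes for PHC minus P minus HC, against 807 without it.

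Leaving out 1 array at a time, SuSy was 3.15 to 3.30 after PHC, 1.66 to 1.85 after HC and 1.70 to 2.14 after P, and SWEET14 -3.11 to -2.56, -2.53 to -2.03 and -1.31 to -1.02. SuSy differences were 1.39 to 1.58 (PHC minus HC), 1.11 to 1.54 (PHC minus P), -0.392 to 0.0396 (HC minus P, above 0 without P replicate 2) and -0.634 to -0.202 (PHC minus P minus HC). SWEET14 differences were -0.844 to -0.290 (PHC minus HC), -1.98 to -1.43 (PHC minus P), -1.40 to -0.908 (HC minus P, called without HC replicate 1 at an adjusted p of 0.048 in limma) and 0.282 to 0.836 (PHC minus P minus HC).

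Sugar genes found by words of their description, 50 tested and with relatives such as pfkB kinases among them, gave 8 higher and 6 lower after PHC, 2 and 3 after HC, and 3 and 0 after P. The lists by Arabidopsis gene were added after the data were seen and share 25 genes with these. They gave 11 higher and 19 lower after PHC, 3 and 6 after HC, and 4 and 0 after P. The counts that follow are for the list by words only. Without a fold limit the words gave 22 higher and 12 lower after PHC, 7 and 10 after HC, and 8 and 5 after P. Normexp gave 1 lower after HC with loess, and with median centring 19 higher and 3 lower after PHC and 1 lower after HC. Scaled arrays gave 5 higher after PHC, 1 higher after HC, and 7 higher and 3 lower after P. Each treatment's own arrays gave 1 higher after HC, and array weights 1 lower after P. With 1 array left out, counts were 6 to 10 higher and 6 to 7 lower after PHC, 1 to 3 and 3 to 5 after HC, and 0 to 3 and 0 to 0 after P.

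Probes called numbered 6635 after PHC, 2616 after HC and 876 after P, and 3663, 2552 and 1710 for PHC minus HC, PHC minus P and HC minus P. Without a fold limit these were 14681, 8925, 3194, 7531, 5759 and 2812. Scaled arrays gave 3523 after PHC, 2663 after P, 1539 for PHC minus HC and 220 for PHC minus P. Normexp and loess gave 1512 after HC, 529 after P and 1139 for HC minus P, and median centring 1647 after HC and 161 for PHC minus P minus HC. Array weights gave 2173 for PHC minus P minus HC. With 1 array left out the counts were 5986 to 7131, 2509 to 3542, 256 to 953 (lowest without P replicate 2), 2631 to 4626, 1613 to 2768 and 1067 to 2404, and 0 to 1637 for PHC minus P minus HC, where the count was 691 without PHC replicate 2, 1637 without HC replicate 2, 643 without HC replicate 3, 91 without P replicate 1, 1 without PHC replicate 3 and 0 without PHC replicate 1, HC replicate 1, P replicate 2 or P replicate 3. Higher probes made up 53.5, 52.1 and 82.8% of the calls after PHC, HC and P. They made up 88.0, 82.0 and 95.7% with median centring, where the median of all probes was 0.156 after PHC and 0.102 after P instead of -0.0745 and -0.033. The shares were 59.4, 69.2 and 86.6% under normexp with loess, and 59.0, 55.3 and 65.1% with scaled arrays.

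Limits come from 3 arrays a treatment, from the absence of dye-swapped arrays, and for SWEET14 from signals close to the local background, where background correction alone moves the size of the change.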

Other observations

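Beyond sucrose itself, its cleavage products are taken up by kinases and by users of UDP-glucose. Among hexose kinases 1 of 8 tested genes was higher after PHC, the HXK3 homolog at 1.11 ± 0.19, and 1 was lower after HC, the FRK5 homolog at -2.09 ± 0.75. The count after PHC was near the share of all tested probes. That share was 13.5% higher and 11.7% lower after PHC, 5.16% and 4.75% after HC, and 2.75% and 0.572% after P. The FRK4, FRK6 and FRK7 homologs averaged 0.65 ± 0.33, 0.92 ± 0.14 and 0.91 ± 0.44 after PHC, short of 2-fold, as did HXK1, HKL1 and HKL3 homologs at 0.07 ± 0.15, 0.41 ± 0.31 and 0.27 ± 0.23. The UGD homolog, a UDP-glucose dehydrogenase that leads to pectin and hemicellulose precursors, was higher after PHC at 1.60 ± 0.18, whereas the UGP2 homolog, a UDP-glucose pyrophosphorylase, averaged 0.04 ± 0.17. Of 7 cellulose and callose synthase genes, the CESA7 and CESA2 homologs were called higher after PHC (1.38 ± 0.62 and 1.12 ± 0.26) and after P (1.48 ± 0.73 and 1.03 ± 0.36). In the same list the callose synthase homologs CALS1 and CALS7 were called lower after PHC (-1.14 ± 0.25 and -1.08 ± 0.10), CALS7 also after HC (-1.36 ± 0.26). The CESA3, CESA4 and CESA8 homologs averaged -0.67 ± 0.37, 0.03 ± 0.13 and 0.58 ± 0.42 after PHC. Both CESA7 calls and the CALS7 call after PHC were lost under both normexp settings, and the CALS1 call with median centring (-0.46). The PHC call of CESA7 was lost without PHC replicate 2 and that of CESA2 without PHC replicate 1. The P call of CESA7 was lost without PHC replicate 3, P replicate 2 or P replicate 3, and that of CESA2 without P replicate 1 or P replicate 2.

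After PHC 13.5% of all tested probes were called higher and 11.7% lower. Beside this, 4 of 15 tested starch genes were lower and 0 higher. BE3 (-2.01 ± 0.39) and AMY3 (-1.56 ± 0.12) homologs, for branching and hydrolysis of starch, were among them. The PHS1 homolog was called at -1.47, and that call was lost with normexp and median centring (-0.82). Of the 4 starch calls, only that of the BE3 homolog was kept in that setting. The DPE1 homolog, a disproportionating enzyme, was called at -1.02 ± 0.18, and that call was lost without PHC replicate 3 and under both normexp settings. Trehalose genes split in direction: 2 of 9 were higher and 3 lower after PHC. The phosphatase homologs TPPF and TPPA stood at 2.66 ± 0.14 and 1.85 ± 0.15, and the TPS6 homolog, of the synthase family, at -1.89 ± 0.25. Of 13 tested monosaccharide transporters 0 were higher and 2 lower after PHC, the INT1 homolog, an inositol transporter, at -1.78 ± 0.32 and the PGLCT homolog, a glucose transporter of plastids, at -1.07 ± 0.08. The INT2 homolog averaged -0.95 ± 0.25 after PHC. After HC 1 was higher, the STP13 homolog at 1.47, and 1 lower, the INT1 homolog at -1.32. The STP13 call was lost without HC replicate 2. Matched by words of the description, 16 tested transporters gave 2 higher and 1 lower after PHC. The PGLCT call was lost under both normexp settings, and the AMY3 call with median centring (-0.82).

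Genes of fermentation and low oxygen were set beside SuSy, since sucrose synthase is known to be induced by low oxygen in plants. Of 5 tested genes 3 were higher after PHC, 2 after HC and 0 after P, beside 13.5%, 5.16% and 2.75% of all tested probes. The ADH1 homolog, alcohol dehydrogenase, stood at 2.30 ± 0.20 after PHC, 0.93 ± 0.42 after HC and 0.79 ± 0.56 after P. The HB1 homolog, a hemoglobin, stood at 2.76 ± 0.35, 3.07 ± 0.22 and -0.64 ± 0.12 in the same order, and the LDH homolog, lactate dehydrogenase, at 1.69 ± 0.13, 0.15 ± 0.12 and 0.68 ± 0.16. The PDC2 homolog, pyruvate decarboxylase, averaged 0.65 ± 0.17 after PHC, and the PCO2 homolog, a cysteine oxidase, was called after HC at 1.31 ± 0.36.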
